A study of Mus musculus with 4 samples.

Results

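The genes described here are 7 markers of thalamic neurons: Tcf7l2, Lef1, Rora, Prkcd, Ramp3, Ntng1 and Plekhg1. They were chosen by name from a thalamic marker list whose TCRb-/- against WT difference went opposite ways in the 2 experiments of a study of mouse septal tissue. They are 7 of the 15426 rows listed for each library. The values that chose them are the genotype differences within each experiment, so those differences are given below as a description, with no test. All 7 had a mean of at least 1 CPM (a gene's reads scaled to a common library total) over the libraries, the filter that left 13912 genes for testing.

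The samples were 4 RNA sequencing libraries of brain septal tissue, 2 from WT mice and 2 from TCRb-/- mice. The latter cannot make the receptor's beta chain and so lack the main class of T cells. Every mouse, WT included, had been restrained for 30 min in a plastic DecapiCone on 3 days and was killed 1.5 h after the last session, so there was no unstressed group. Experiment 1 held replicate 1 of each genotype and experiment 2 held replicate 2, and each library was a pool of 4 to 5 mice, so that a replicate is a pool and not an animal. RNA came from a lysate from which nuclei and debris had been spun down, and samples had an RNA integrity number above 9. No strain, age or sex of the mice stands in the labels used here. The study's question was how septal tissue differs between mice with and without the receptor chain after stress.

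Thalamic relay neurons are glutamatergic cells that pass sensory, motor and limbic signals to the cortex. Their identity is held in large part by Tcf7l2, a transcription factor that, with Lef1, belongs to the TCF/LEF family. These factors bind DNA at the end of the Wnt pathway, where they act with beta-catenin. Rora is an orphan nuclear receptor known for Purkinje cells of the cerebellum and also made by thalamic relay neurons. Prkcd is a protein kinase C isoform that needs diacylglycerol but not calcium, and Ramp3 is a membrane protein that pairs with the calcitonin and calcitonin-like receptors and sets which peptides they bind. Ntng1 (netrin-G1) is a membrane-anchored adhesion protein of axons, thalamocortical ones among them, and Plekhg1 encodes a pleckstrin homology domain protein that activates small GTPases. None of these genes is private to the thalamus. Lef1 is also made by brain endothelium, Tcf7l2 by newly formed oligodendrocytes, Rora by astrocytes and Prkcd by neurons of the central amygdala. The thalamus lies behind the septum, and the striatum, the lateral ventricles and their choroid plexus lie beside it.

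Because Tcf7l2, Lef1 and Rora bind DNA and all members were highest in the same library, the bases upstream of the members' start sites were searched for the letters these factors are known to bind. Promoter entries were found for 7 of 7 members, with 12 start sites in all, and the 250 bases before each start were read from RefSeq's annotation of GRCm38.p6. The TCF/LEF letters searched were CTTTGNN with each N an adenine or a thymine, on both strands, and overlapping matches with other motifs were allowed. They stood before 3 of the 12 starts, and before 14.8% of all 32851 promoter windows of that length. The 3 matches are shown 5′ to 3′ on the gene's strand, with the matched letters in capitals:

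Tcf7l2, start 2, plus strand, chr19:55895292-55895320: aaacaaaatatcaggCTTTGTTcttttga

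Lef1, start 4, plus strand, chr3:131156132-131156168: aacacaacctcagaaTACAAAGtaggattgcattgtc

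Prkcd, start 2, minus strand, chr14:30610531-30610560: gcaaaatcAACAAAGattcaagaggtgctt

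Starts are numbered in the direction of transcription, and all 3 matches belonged to starts inside the gene, downstream of its first start. The Tcf7l2 match read along the gene's strand, from 14 to 8 bases before the start. Those of Lef1, from 147 to 141 bases before its start, and Prkcd, from 242 to 236 bases before its start, read on the opposite strand. The ROR letters TNGGTCA, with N an adenine or a guanine, are known to be bound by Rora and were searched on both strands in the same windows. They stood before 0 of the 12 starts and before 5.38% of all windows. A match is a run of letters and not a measured binding site, and the deposited values count reads per gene, so they do not tell one start from another.

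Library totals were between 19988137 and 26210790 reads, and 1 read was worth 0.038 to 0.050 CPM. Trbc2, a constant segment of the deleted receptor chain, had 169 reads (6.45 CPM) in WT replicate 1 and 86 reads (3.85 CPM) in WT replicate 2. Both libraries labelled TCRb-/- had 0 reads of it, a limit of 0.122 CPM in replicate 1 and 0.150 CPM in replicate 2, as their labels say. Genes known from septum were present in all libraries, with a summed level of 487 to 567 CPM over 14 genes, none of them at 0. The library of TCRb-/- replicate 2 stood apart from the rest in several marker lists: it had the lowest striatal sum (1620 CPM against 3562 to 6849) and the highest choroid plexus sum (6913 CPM against 1319 to 4204).

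Tcf7l2, Lef1, Rora and Ntng1 were higher in experiment 2 than in experiment 1, and the difference passed the test; Prkcd, Ramp3 and Plekhg1 did not pass it. The test was limma's moderated test on log2(CPM + 1), fitted on 13912 genes with experiment as the only term, 2 libraries each, two-sided, and p-values adjusted by Benjamini-Hochberg were held to 0.05. So 4 of 7 members were called higher and 0 lower, where 8.95% of all genes tested were called higher, 14.7% lower and 23.7% in either direction. The median difference over the members was 0.66 on the log2(CPM + 1) scale, against -0.03 over all genes tested. Both experiment 2 libraries lay above both experiment 1 libraries for 6 of 7 members, all but Prkcd, and this held for 30.1% of all genes tested. This contrast averages over the genotypes and is not the one that chose the members, but they were picked with earlier results of these libraries known. Its spread came from the gap between the WT and the TCRb-/- library within each experiment, together with limma's prior. Those gaps are the values that chose the members, so the members' standard errors, p-values and calls are not independent of that choice. In tissue from many cells, fewer cells of a type and less RNA per cell cannot be told apart.

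**Figure D1:**
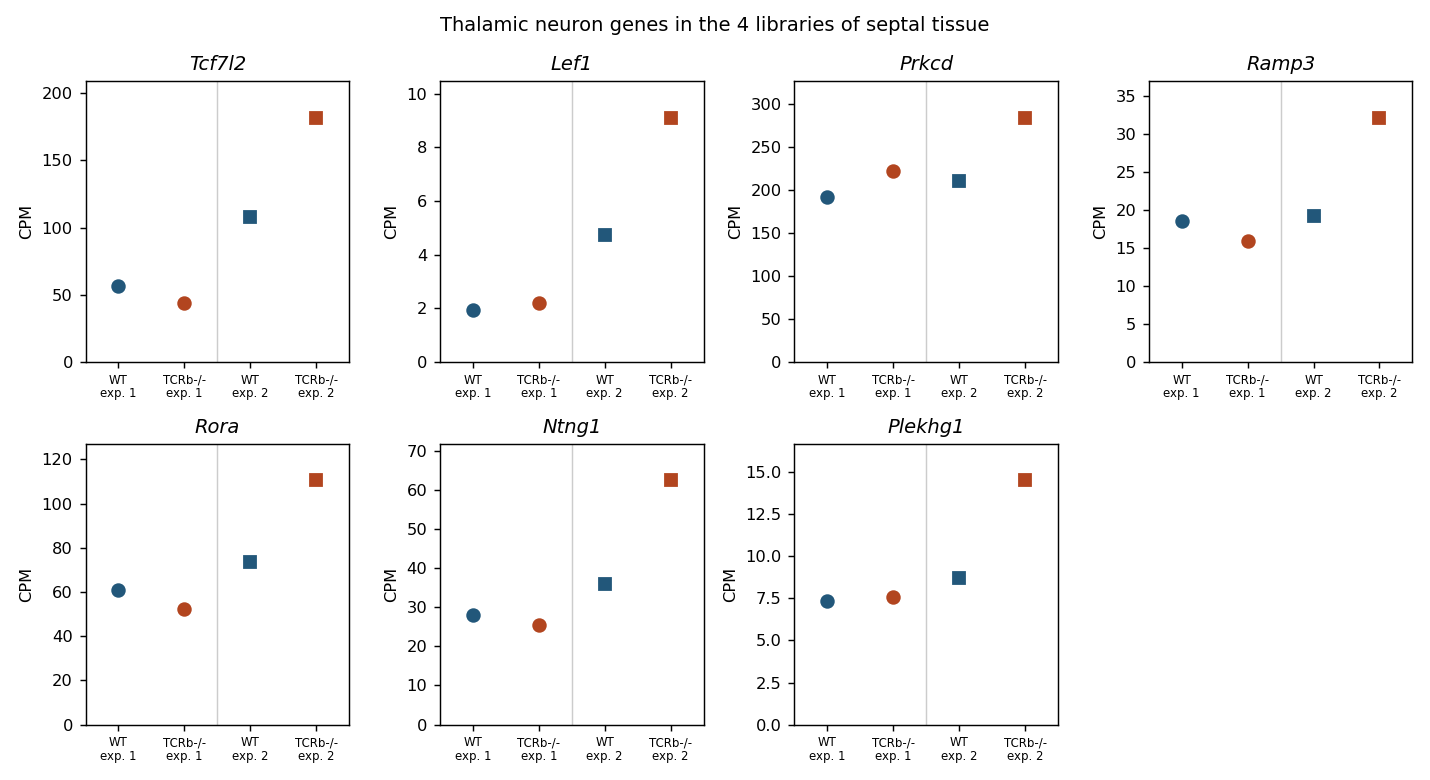
Level of each of the 7 genes in CPM (vertical axes start at 0) in the 4 libraries: WT in blue, TCRb-/- in red, experiment 1 as circles and experiment 2 as squares, 1 point per pooled library. In each panel the highest point is TCRb-/- replicate 2, and both squares lie above both circles in all panels but that of Prkcd.

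Among the transcription factors, Tcf7l2 (chr19:55741820-55933654, plus strand, GRCm38) comes first. It was at 56.5 CPM in WT replicate 1, 43.6 CPM in TCRb-/- replicate 1, 108 CPM in WT replicate 2 and 182 CPM in TCRb-/- replicate 2, from 1073 to 3633 reads a library. The lower of the experiment 2 libraries, WT, was thus well above the higher of the experiment 1 libraries, also WT. Experiment 2 exceeded experiment 1 by 1.48 ± 0.22 (SE) on the log2(CPM + 1) scale, with an adjusted p of 0.00669 in limma. This was the 12th largest rise in the whole table of tested genes.

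Lef1 (chr3:131110471-131224356, plus strand) was the scarcest member, with 51 to 182 reads a library. Its level was 1.95 CPM in WT replicate 1, 2.20 CPM in TCRb-/- replicate 1, 4.74 CPM in WT replicate 2 and 9.11 CPM in TCRb-/- replicate 2. The experiment 1 libraries were nearly level with each other, and the experiment 2 libraries lay clearly above them. The difference between experiments was 1.31 ± 0.26 (SE) on the log2(CPM + 1) scale, the 28th largest, with an adjusted p of 0.0135 in limma. That size depended on the pseudocount: it was 0.73 with a pseudocount of 5 and 1.66 on the deposited log2 values, where Tcf7l2 had 1.50, so the order of the pair is not fixed.

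Rora (chr9:68653786-69388246, plus strand) had the same order of libraries as Tcf7l2, with smaller differences. It stood at 60.8 CPM in WT replicate 1, 52.4 CPM in TCRb-/- replicate 1, 73.4 CPM in WT replicate 2 and 111 CPM in TCRb-/- replicate 2. Here the WT libraries differed little and most of the rise lay in TCRb-/- replicate 2. Experiment 2 was higher by 0.66 ± 0.17 (SE) on the log2(CPM + 1) scale, with an adjusted p of 0.0295 in limma.

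Of the signalling genes, Prkcd (chr14:30595354-30626210, minus strand) varied least. It had 192 CPM in WT replicate 1, 222 CPM in TCRb-/- replicate 1, 210 CPM in WT replicate 2 and 284 CPM in TCRb-/- replicate 2. Its experiments overlapped, since TCRb-/- replicate 1 lay above WT replicate 2. The difference of 0.24 ± 0.14 (SE) on the log2(CPM + 1) scale did not pass the test (adjusted p of 0.228 in limma).

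Ramp3 (chr11:6658521-6677475, plus strand) was at 18.6 CPM in WT replicate 1, 15.98 CPM in TCRb-/- replicate 1, 19.3 CPM in WT replicate 2 and 32.2 CPM in TCRb-/- replicate 2. The first 3 of these libraries were close together, and TCRb-/- replicate 2 alone was high. The mean difference between experiments, 0.51 ± 0.21 (SE) on the log2(CPM + 1) scale, did not pass the test (adjusted p of 0.117 in limma).

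The adhesion gene Ntng1 (chr3:109780040-110144011, minus strand) had 28.0 CPM in WT replicate 1, 25.5 CPM in TCRb-/- replicate 1, 36.0 CPM in WT replicate 2 and 62.4 CPM in TCRb-/- replicate 2. The experiments did not overlap, and the gap between the genotypes was wide in experiment 2 only. Experiment 2 was higher by 0.81 ± 0.22 (SE) on the log2(CPM + 1) scale (adjusted p of 0.0334 in limma). Plekhg1 (chr10:3740364-3967303, plus strand), the GTPase activator, had 7.36 CPM in WT replicate 1, 7.57 CPM in TCRb-/- replicate 1, 8.72 CPM in WT replicate 2 and 14.5 CPM in TCRb-/- replicate 2, and its difference of 0.54 ± 0.21 (SE) did not pass the test (adjusted p of 0.104 in limma). Like Ramp3, it was high in 1 library and close together in the other 3.

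These calls rest on 2 libraries a side. Leaving out a library leaves 1 on its side, which is then assumed to vary like the other pair, so the counts that follow rest on the spread of that pair alone and on limma's prior. With TCRb-/- replicate 1 or WT replicate 1 left out, Tcf7l2 alone of the members was called. Without WT replicate 2 all 7 were called. Without TCRb-/- replicate 2 the same 4 were called, while the median difference fell from 0.66 to 0.37. With a prior variance that did not follow the mean, 0 of 7 were called, and the adjusted p of the 4 lay between 0.0512 and 0.103 in limma. The labels do not say how the pools of mice were drawn, so the p-values measure only the spread between these pools. Within an experiment the pools differed in genotype, so that spread is not one between like pools.

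Within experiment 2, the TCRb-/- library exceeded the WT library for all 7 members, and within experiment 1 for 3 of them. The intervals given with these ratios are exact 95% intervals for the ratio of read counts, cover counting error only and say nothing of differences between pools, since 1 library stood on each side. In experiment 1 the TCRb-/- over WT ratio was 0.773 for Tcf7l2 (0.714 to 0.837), 0.860 for Ramp3 (0.751 to 0.985) and 0.863 for Rora (0.801 to 0.929). For Ntng1 it was 0.909 with an interval that reached 1.01. The ratio was above 1 for Prkcd, at 1.16 (1.11 to 1.20), and for Lef1 at 1.13 and Plekhg1 at 1.03, both with intervals that held 1. In experiment 1, 0 of 7 members were 1.5-fold or more lower in TCRb-/-, where 1.75% of genes tested were.

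Experiment 2 gave ratios of one direction that differed in size. They ran from 1.35 for Prkcd, with an interval that ended at 1.40, through 1.51 for Rora (1.41 to 1.61), 1.66 for Plekhg1 (1.38 to 2.01), 1.67 for Ramp3 (1.47 to 1.89), 1.68 for Tcf7l2 (1.60 to 1.77) and 1.73 for Ntng1 (1.59 to 1.90) to 1.92 for Lef1 (1.50 to 2.46). Of the 7 members, 6 reached 1.5-fold, all but Prkcd; 3.02% of all genes tested were that much higher. All 7 were highest of the 4 libraries in TCRb-/- replicate 2, as were 28.8% of genes tested. The signs were opposite in the 2 experiments for Tcf7l2, Ramp3, Rora and Ntng1, 4 of 7, where 23.9% of genes tested were lower in TCRb-/- in experiment 1 and higher in experiment 2. Lef1, Prkcd and Plekhg1 were higher in TCRb-/- in both. Since these contrasts chose the list, nothing is read from those shares. The median genotype difference of the members on the log2(CPM + 1) scale was -0.13 in experiment 1 and 0.71 in experiment 2, against 0.01 and 0.00 over all genes tested.

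Across both experiments, limma with genotype as the only term called 0.0% of the 13912 genes (0 genes; 43 had an unadjusted p under 0.05, 28 of them higher in TCRb-/-). That fit leaves the difference between the experiments in its spread, so its 0 calls do not show that genotype had no effect. Even Trbc2, with 0 reads in both TCRb-/- libraries, was not called in it. With the replicate number as a block, which pairs the libraries of one experiment, 2 genes were called, Trbc2 and Ttr, a choroid plexus gene, and none was a member.

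**Figure D2:**
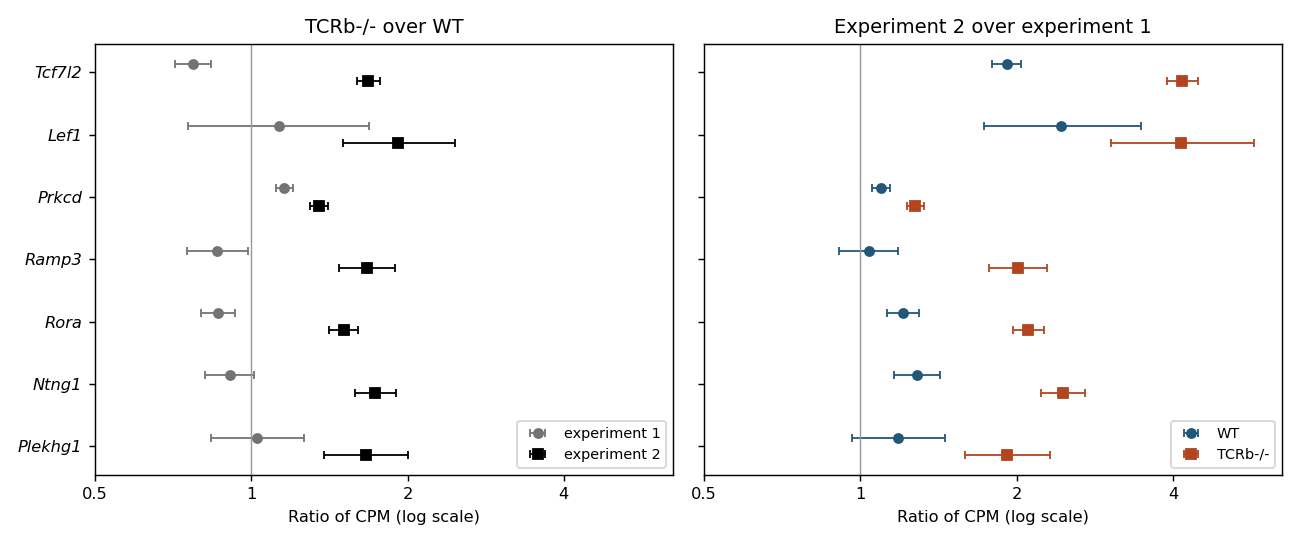
Ratios of CPM on a log axis for the 7 genes, with exact 95% counting intervals as bars; left, TCRb-/- over WT in experiment 1 (grey circles) and experiment 2 (black squares); right, experiment 2 over experiment 1 in WT (blue circles) and TCRb-/- (red squares). All squares on the left lie between 1.35 and 1.92, while the circles lie between 0.773 and 1.16; on the right each red square lies at a larger ratio than its blue circle, which follows from the left panel.

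The same values read by genotype show how the rise between experiments was shared. In TCRb-/- the experiment 2 library was 4.16 times the experiment 1 library for Tcf7l2 and 4.15 times for Lef1, from 1.92 to 2.45 times for Ntng1, Rora, Ramp3 and Plekhg1, and 1.28 times for Prkcd. In WT the ratio was 1.91 for Tcf7l2 and 2.44 for Lef1, and at most 1.29 for the others. The WT interval held 1 for Ramp3 (0.909 to 1.18) and Plekhg1 (0.966 to 1.45) and lay above 1 for the other 5. All 7 members were higher in experiment 2 in both genotypes. That the ratio was larger in TCRb-/- than in WT restates the genotype differences that chose the list, so nothing is read from it. The median log2(CPM + 1) difference over the members was 1.06 in TCRb-/- and 0.27 in WT.

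**Figure D3:**
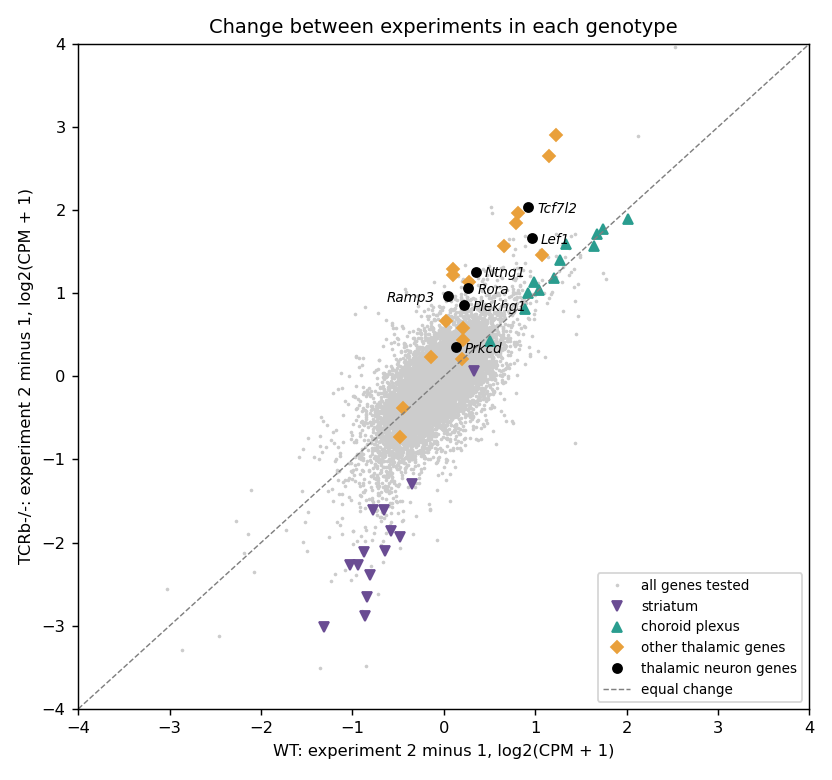
Each point is a gene; horizontal axis, WT replicate 2 minus WT replicate 1, and vertical axis, TCRb-/- replicate 2 minus TCRb-/- replicate 1, both on the log2(CPM + 1) scale, with the dashed line marking equal change. The 7 thalamic neuron genes (black circles) lie above the line, most of the other thalamic genes (orange diamonds) lie with them, choroid plexus genes (green triangles) lie near the line at upper right, and striatal genes (purple triangles) lie below it at lower left.

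Corrected for transcript length, Prkcd was the most abundant member and Lef1 the least. The mean level over the 4 libraries was 40.9 CPM per kilobase of exon for Prkcd (SD 7.18), 15.6 for Ramp3 (SD 5.25), 11.1 for Tcf7l2 (SD 7.15), 5.68 for Rora (SD 1.96), 4.61 for Ntng1 (SD 2.05), 1.09 for Plekhg1 (SD 0.385) and 0.512 for Lef1 (SD 0.378). Prkcd lay above Ramp3, and Ntng1 above Plekhg1, in every pair of libraries. The other neighbours in this order overlapped in their range over libraries: Ramp3 with Tcf7l2, Tcf7l2 with Rora, Rora with Ntng1, and Plekhg1 with Lef1. Compared within a library, however, the members stood in the order given above in every library. Prkcd, the most abundant, also had the smallest genotype ratio in experiment 2 and the smallest ratio between experiments in TCRb-/-.

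The contrast between experiments varied with transcript length. Across the 13552 tested genes with a known exon length, the difference between experiments fell with length (Spearman's rho of -0.398 over genes, a description, since genes are no independent replicates). The median difference was 0.19 in the shortest 10th of genes and -0.21 in the longest. Of the members, Tcf7l2, Lef1, Ntng1 and Plekhg1 were in length decile 9 and Rora in decile 10, where 2.51% and 1.77% of genes were called higher. Prkcd was in decile 7 and Ramp3 in decile 1, where 4.51% and 24.1% were. With the length trend removed, the same 4 members were called and the median over all 7 was 0.88. The difference of Ramp3 was then smaller, at 0.33 against 0.51, and those of the other members were larger. The part of length in the members' differences was not tested.

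The members differed from one another in their pattern over the libraries. Centred on each gene's mean, Rora lay nearest to the median pattern of the 7, with a root mean square difference of 0.032 on the log2(CPM + 1) scale over the 4 libraries. Ntng1 (0.089), Ramp3 (0.098) and Plekhg1 (0.10) were next. Prkcd (0.26), which moved little, and Lef1 (0.34) and Tcf7l2 (0.41), which moved most, lay farther off. The 5 other genes nearest to that median pattern by the same measure were Sptssb (0.037), Gm28703 (0.048), Ccer2 (0.057), Ctf1 (0.057) and Adra1b (0.057). Sptssb encodes a subunit of serine palmitoyltransferase, Ctf1 the cytokine cardiotrophin 1 and Adra1b an alpha-1 adrenergic receptor, a gene known to be high in thalamus. Adra1b was the only one of the 5 called between experiments, at 10.6, 10.4, 14.6 and 22.7 CPM in WT replicate 1, TCRb-/- replicate 1, WT replicate 2 and TCRb-/- replicate 2 (adjusted p of 0.0286 in limma). Likeness over 4 libraries is a description of these libraries.

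A second list of 16 genes known from thalamic relay nuclei, none of them a member, was read beside the 7. Of these 16, 9 were called higher in experiment 2 and 2 lower, with a median of 0.68. The largest rises were those of Shox2 (2.07), a homeobox gene, Tnnt1 (1.90), a troponin, and Gbx2 (1.39), a homeobox gene of the early thalamus. Shox2 was at 7.21 CPM in WT replicate 1, 4.51 CPM in TCRb-/- replicate 1, 18.2 CPM in WT replicate 2 and 40.4 CPM in TCRb-/- replicate 2, the same order of libraries as Tcf7l2. Calb2 (calretinin), the most abundant of the list, was at 312, 330, 657 and 912 CPM in that order of libraries (1.27, adjusted p of 0.00386 in limma). The 2 that fell were the transcription factors Foxp2 (-0.60) and Lhx2 (-0.42).

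The genotype pattern within experiments was also like that of the members. The other thalamic genes had a median TCRb-/- minus WT difference of -0.13 in experiment 1 and 0.57 in experiment 2, and 12 of the 16 were lower in TCRb-/- in the former and higher in the latter. TCRb-/- replicate 2 was the highest library for 14 of the 16. Summed over the list, the level was 674 CPM in WT replicate 1, 663 CPM in TCRb-/- replicate 1, 1067 CPM in WT replicate 2 and 1505 CPM in TCRb-/- replicate 2. The corresponding sums of the 7 members were 365, 369, 460 and 694 CPM. Both sums were level within experiment 1 and apart within experiment 2, but 1 gene weighed heavily in each. In replicate 1 Prkcd made up 192 CPM of the members' sum in WT and 222 CPM in TCRb-/-. Calb2 made up 312 and 330 CPM of the other sum. Gene by gene, 4 of the 7 members and 13 of the 16 other genes were lower in TCRb-/- in experiment 1. Because thalamic genes as a class had been seen to move in these libraries before the list was written, it is no independent evidence.

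Relatives of the members moved in both directions. Of the TCF/LEF family, Tcf7 fell between experiments, from 11.3 and 12.5 CPM in WT and TCRb-/- replicate 1 to 7.20 and 2.90 CPM in replicate 2 (-1.19 on the log2(CPM + 1) scale, adjusted p of 0.0292 in limma). Tcf7l1 was at 4.65 to 6.41 CPM and did not pass the test (adjusted p of 0.685 in limma). Of all genes tested, 8.95% were called higher and 14.7% lower. Among 57 tested genes of the Wnt pathway other than the members, 3 were called higher and 11 lower, not far from those shares, with a median of -0.11. Those higher were the secreted Wnt inhibitors Sfrp5 (1.09) and Sfrp2 (0.73) and the agonist Rspo1 (0.37). The largest falls besides Tcf7 were those of the ligand Wnt2 (-1.16) and of Dkk3 (-1.13), a member of the Dickkopf family. Csnk1a1, the casein kinase that primes beta-catenin for breakdown and the most abundant of the list, was at 293 to 321 CPM and was not called.

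Of the other protein kinase C genes reported here, 0 were called higher and 5 lower in experiment 2. Those called were Prkcb (-0.71), Prkch (-0.69), Prkcz (-0.50), Prkci (-0.36) and Prkce (-0.35), while Prkca (-0.20) and Prkcq (0.03) were not called. Among 6 measured genes of other RAMPs, receptors and ligands, the peptide gene Calca (1.19) and the calcitonin receptor Calcr (0.75) were called higher. Ramp1 (-0.26), Ramp2 (0.04), Calcrl (-0.20) and Adm (-0.34) were not called. Calcr stood at 6.68 and 5.65 CPM in WT and TCRb-/- replicate 1 and at 11.6 and 10.51 CPM in replicate 2. It was thus no higher in TCRb-/- than in WT in experiment 2, unlike Ramp3. Calca, at 2.71 and 2.12 CPM in WT and TCRb-/- replicate 1 and 5.10 and 8.81 CPM in replicate 2, was higher there, like Ramp3. Of the 6 genes, 3 were higher in TCRb-/- than in WT in experiment 2 and 3 lower.

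For Rora, the related receptor gene Rorb (0.03) was not called. Ntng2, the other netrin-G gene, was not analysed here. The netrin-G ligand genes Lrrc4 (-0.54) and Lrrc4c (-0.63) fell in experiment 2, and Lrrc4b (0.26) was not called; Lrrc4c encodes the partner that netrin-G1 binds. Of the Plekhg genes, Plekhg2 (-0.38), Plekhg3 (-0.23) and Plekhg5 (-0.26) were not called, and Plekhg4 and Plekhg6, each below a mean of 1 CPM, were not tested.

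Genes of other cell types known to make a member were compared in the same way. For endothelium, known to make Lef1, of 8 tested genes 1 was called higher (Slco1c1, 0.62) and 0 lower, with a median of -0.23 and 5 of the 8 below 0. Of these 8, 2 were highest in TCRb-/- replicate 2, Slco1c1 and Slco1a4. Over all 11 listed endothelial genes the summed level was 57.9 to 76.1 CPM, highest in TCRb-/- replicate 2, where Slco1c1 alone had 39.9 CPM. Newly formed oligodendrocytes, known to make Tcf7l2, had 0 of 7 called higher and 2 lower (Tmem2 at -0.67 and Gpr17 at -0.63), with sums of 92.3 to 117 CPM that were lower in both experiment 2 libraries. Astrocytes, known to make Rora, had 1 of 10 called higher (Slc7a10, 0.60) and 1 lower (Slc1a2, -0.32), with sums of 2545 to 2802 CPM. Microglia had 0 of 10 called higher and 1 lower (Cx3cr1, -0.42), and myelinating oligodendrocytes had 1 of 10 higher (Aspa, 0.35) and 1 lower (Mobp, -0.36). No gene of these lists was at 0 in any library, and the part of these cells in the members' differences was not tested.

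Among markers of the regions around the septum, those of choroid plexus rose as the members did, and those of striatum and cortex mostly fell. Of 12 choroid plexus genes, 11 were called higher in experiment 2, led by Ttr (1.96), Folr1 (1.76) and Kcnj13 (1.70), with a median of 1.26. Their sum was 1319 and 2154 CPM in WT and TCRb-/- replicate 1 and 4204 and 6913 CPM in replicate 2. Of 14 striatal projection neuron genes, 13 were called lower, led by Pde10a (-2.17), Adora2a (-1.87) and the dopamine receptor gene Drd1 (-1.74), with a median of -1.43. Their sum was 6072 and 6849 CPM in WT and TCRb-/- replicate 1 and 3562 and 1620 CPM in replicate 2, and TCRb-/- replicate 2, where all 7 thalamic neuron genes were highest, was the lowest library for 13 of the 14. Of 12 genes of cortical and hippocampal excitatory neurons, 6 were called lower, with Neurod6 (-3.08), Slc17a7 (-2.79) and Neurod2 (-2.79) at the head. Their sum fell from 521 and 454 CPM in WT and TCRb-/- replicate 1 to 262 and 238 CPM in replicate 2. The part of these regions' share of the tissue in the members' difference was not tested.

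**Figure D4:**
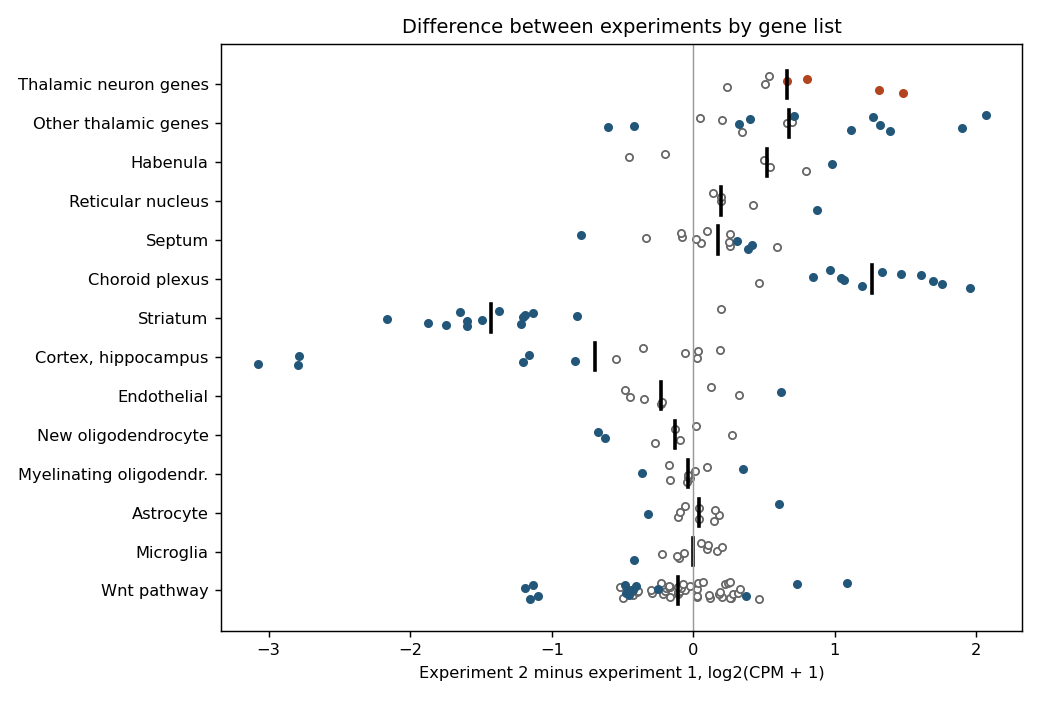
Difference between experiments (experiment 2 minus experiment 1, log2(CPM + 1), horizontal axis) for each tested gene of 14 lists; filled points passed limma's adjusted threshold, open points did not, and black bars are list medians. The thalamic neuron genes (median 0.66) lie to the right with the other thalamic genes and the choroid plexus genes (1.26), and striatal genes (-1.43) lie to the left.

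Genes of the labelled tissue moved in both directions and by less. Of 14 septal genes, 3 were called higher in experiment 2, Zic4 (0.41), Zic1 (0.38) and Nts (0.31), and 1 lower, the choline transporter gene Slc5a7 (-0.79), with a median of 0.17. Sst, the most abundant of them, was at 168 to 204 CPM and was not called. Of 6 measured habenula genes, 1 was called, the nicotinic receptor subunit gene Chrnb4 (0.98), and Tac2, the most abundant, was at 22.1 to 40.1 CPM. The habenula list was highest in sum in WT replicate 2, at 61.8 CPM against 53.9 CPM in TCRb-/- replicate 2, and Tac2 made up most of that sum. Gpr151, Chrna3 and Chrnb4, 3 of the 6, were highest in TCRb-/- replicate 2. The 5 genes of the thalamic reticular nucleus, the inhibitory shell around the thalamus, had 1 called higher, Pvalb (0.87), and were also highest in sum in WT replicate 2, at 411 CPM; their most abundant gene was Ecel1, at 173 to 219 CPM.

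**Figure D5:**
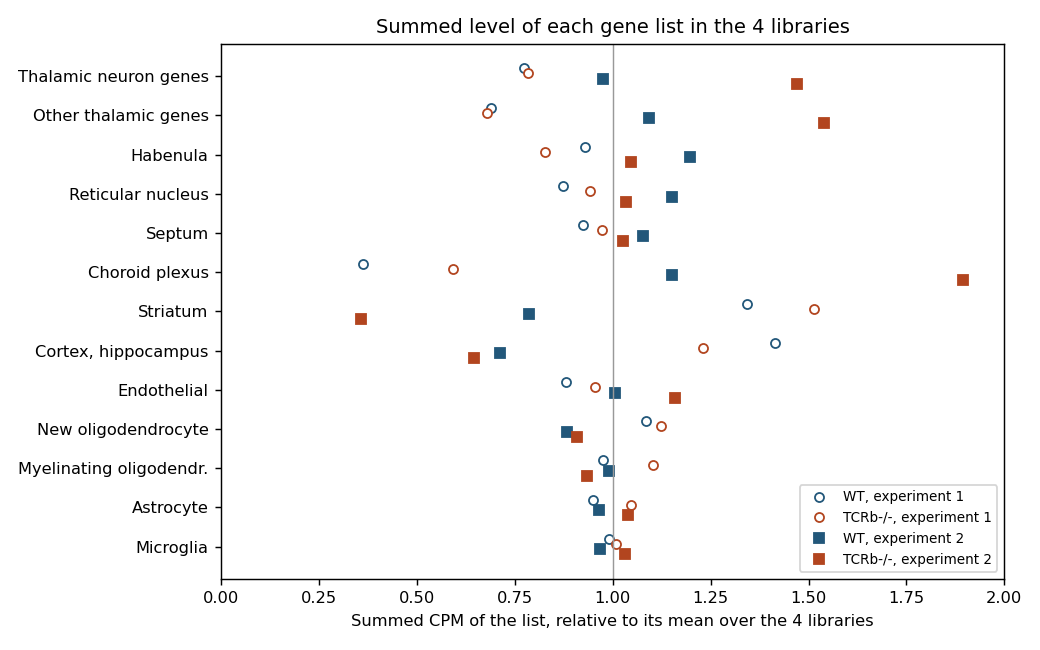
Summed CPM of each list in each library, divided by the list's mean over the 4 libraries (horizontal axis, 1 is the mean); open circles are experiment 1, filled squares experiment 2, WT in blue and TCRb-/- in red. The thalamic neuron genes and the other thalamic genes reach 1.47 and 1.54 in TCRb-/- replicate 2, where the striatal genes are at 0.358 and the choroid plexus genes at 1.90.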

How the data were processed

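Each deposited file held 1 library, and per the file headers its column was a gene symbol and a value. The values are log2 values made by the authors: each is the log2 of CPM, with 0.5 added to the reads and 1 to the library total, which was worked out from the values themselves (100% gave whole reads within 0.001 reads). The submitters' processing notes name mm10, HISAT2 2.1.0, SAMtools 1.3, HTSeq 0.9.1, R 4.0.5 and limma 3.46.0 without giving their roles. From these values CPM and log2(CPM + 1) were computed, which understates the change of low genes. Of the 15426 rows, 17 were spike-in RNAs and were left out. Those averaging 1 CPM or more were tested with limma 3.58.1 in R 4.3.3 (trended empirical Bayes, two-sided, Benjamini-Hochberg, 0.05), with experiment or genotype as the only term. With 2 libraries against 2, an exact permutation test cannot go below 0.333, so none was used for single genes. Count models were not used, because the deposited values are on a log2 scale, although whole reads could be worked out from them.

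The labels give the replicate number as the experiment, so it pairs the libraries; the deviations of same-numbered libraries from their genotype means had a correlation of 0.72 over genes. Exon lengths and coordinates came from GENCODE release M21 (GRCm38), with lengths for 97.4% of tested genes. Other steps used Python 3.11.15 (scipy 1.17.1, pandas 2.3.3, numpy 2.4.6; plots with matplotlib 3.10.9). Intervals of ratios were exact 95% intervals by Clopper-Pearson. The labels describe no molecular identifiers, so reads are not counted as molecules, and these intervals and the limit of 3 reads behind a count of 0 cover counting error only. The linear model was also run on simulated reads, with the same spread setting for all genes and no genotype gap within an experiment. That run therefore does not bear on the members' calls.

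The members and all gene lists were chosen with earlier results of these data known. Named were the members, genes of their families' lists (some are not reported here), Tcf7 and Tcf7l1, up to 3 called genes per direction and the most abundant gene of each other list, and the 5 genes most like the members. Alternatives were other pseudocounts, filters, scalings, the deposited values, no variance trend, removal of the length trend, the replicate block and leaving out each library.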

Additional observations from a re-analysis of the deposited data

Results flagged for a closer look

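For 4 members the TCRb-/- minus WT difference was below 0 in experiment 1 and above 0 in experiment 2. On the log2(CPM + 1) scale the difference in experiment 2 exceeded that in experiment 1 by 1.11 for Tcf7l2, 0.92 for Ramp3, 0.79 for Rora and 0.91 for Ntng1. With 1 library per genotype and experiment, the difference between the experiments was not tested.

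The medians of further lists also changed sign between the experiments, untested for the same reason. The other thalamic genes had a median of 0.57 in experiment 2 against -0.13 in experiment 1, habenula genes 0.12 against -0.20, and striatal genes -1.19 against 0.17. Septal genes had -0.04 against 0.13, reticular nucleus genes -0.16 against 0.06 and myelinating oligodendrocyte genes -0.05 against 0.11. The sign also changed for newly formed oligodendrocytes (-0.02 against 0.07), the RAMP family with its receptors and ligands (-0.002 against 0.089) and the Wnt pathway (0.013 against -0.011).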

How the results depend on the processing

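Members kept a higher level in experiment 2 under each alternative in which they were tested (Lef1 and Plekhg1 were not, at a mean of at least 10 CPM): 68 of 68 values with all libraries kept the direction and 64 kept their side of the threshold, and of 28 values with 1 library left out 28 kept the direction and 19 their side. Other filters, no variance trend and the replicate block leave a member's difference as it was. Its direction there was fixed in advance, so those values are no check of direction. The median of the members between experiments was 0.63 to 0.88 with all libraries and 0.37 to 0.96 with 1 left out. The count of members called higher was 0 without a variance trend and 1 to 7 with 1 library left out. Over all genes, 3292 were called between experiments, 629 without a variance trend and 1406 to 3390 with 1 library left out (1406 without TCRb-/- replicate 1, 1637 without WT replicate 1 and 1823 without TCRb-/- replicate 2). Of the calls 37.8% were higher, 50.6% after quantile normalization, 47.8% with the length trend removed and 20.7% without a variance trend; the cause was not tested. In the fit with the replicate block, which holds genotype and experiment together, 3437 genes were called between experiments, 3143 of them shared with the fit of experiment alone, and it changed the call of no member. The count by genotype was 0, 2 with the replicate block and 0 to 47 with 1 library left out (47 without TCRb-/- replicate 1). The median genotype difference of the members in experiment 2 was 0.56 with a pseudocount of 5, which compresses low genes; that median and the count of members called were given their alternatives after the data had been seen. Depth limits Lef1 most, at 51 reads in its lowest library.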
